A study of Homo sapiens with 6 samples.

Results

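The GC-rich catalogue entries hsa-miR-4488, hsa-miR-4492, hsa-miR-4508, hsa-miR-4516 and hsa-miR-10400-5p (without the hsa prefix, for human, in what follows) were followed in exosomes of HaCaT cells, an immortalised line of human skin keratinocytes. The 5 were taken by name from 161 known miRNA rows (276 rows with the predicted miRNAs), and all 5 stand among the 79 known rows that the authors listed as higher. Exosomes, small vesicles that cells release, were collected by ultracentrifugation from the medium of 3 untreated cultures and 3 cultures given 0.4 mM hydrogen peroxide (H2O2), an oxidant. All libraries came from that 1 cell line, whose genotype field reads "With type", and their titles number them as biological replicates. The H2O2 libraries are labelled 24, 25 and 26 h for replicates 1, 2 and 3, so time and replicate cannot be told apart, while the series' design names 24 h for all. The question was how the small RNA content of the exosomes differs after H2O2. The members were chosen for being higher on this same contrast and under the name of GC-rich entries. The GC content of miR-10400-5p was not analysed here. Because of that choice, the members' differences between the groups are given below as a description, with no test.

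A microRNA is a short RNA cut from a hairpin precursor and loaded into an Argonaute protein. It pairs with messenger RNAs mainly through its seed, a run of bases near its 5′ end. Short GC-rich entries that were catalogued late from deep sequencing need care, because fragments of abundant RNAs such as ribosomal RNA can carry the same letters and be counted under a miRNA name. Of the 5, miR-4516 has been studied in keratinocytes, where the transcription factor STAT3 has been described as its target. No role is given here for the other 4.

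The RefSeq table (GRCh38.p14) held the mature sequence of 3 of the 5 entries. They are shown because their base composition and length set them apart from most miRNAs, with the seed, bases 2 to 8 from the 5′ end, in capitals:
miR-4488: aGGGGGCGggcuccggcg
miR-4492: gGGGCUGGgcgcgcgcc
miR-4516: gGGAGAAGggucggggc
The GC content was 88.9% for miR-4488, 94.1% for miR-4492 and 76.5% for miR-4516, against a median of 50.0% over the 136 listed known rows with a sequence. miR-4492 had the highest GC content of those 136 rows. The 3 entries were also short, at 18, 17 and 17 bases, where the median of the listed rows was 22 bases. In the whole table of 2370 mature sequences, 5.57% had a GC content of at least 75% and 5.49% were of 18 bases or fewer. The 3 seeds differ from each other, and 0 of the other listed rows with a sequence carry any of them.

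miR-4508 and miR-10400-5p are named here without a mature sequence. The hairpin of miR-4508 had a GC content of 80.0%, against a median of 52.1% over 1560 catalogued hairpins. It is shown because it holds 15 consecutive bases of miR-4492, which stand in capitals in both sequences:
miR-4492: GGGGCUGGGCGCGCGcc
MIR4508 hairpin: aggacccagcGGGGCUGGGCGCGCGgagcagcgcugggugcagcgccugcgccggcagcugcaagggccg
The stretch covers bases 1 to 15 of the 17 in miR-4492 and bases 11 to 25 of the hairpin. A read that lies inside it cannot be assigned to 1 of these entries by sequence, and the sources used here do not say how the authors counted such reads. Between the other pairs among these sequences the longest shared stretch was 5 or 6 bases.

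The hairpins lie apart in the genome (GRCh38, coordinates the same in RefSeq and GENCODE release 29). MIR4488 is on the plus strand at chr11:61508596-61508657, outside any other annotated gene and 143 bases from LRRC10B. MIR4492 is on the plus strand at chr11:118910708-118910787, antisense to an exon of BCL9L, which encodes a Wnt pathway coactivator. MIR4508 is on the minus strand at chr15:23562062-23562131, outside any other annotated gene and 3543 bases from MKRN3. MIR4516 is on the plus strand at chr16:2133119-2133204, antisense to an intron of PKD1, the gene of polycystin-1.

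The resemblance to ribosomal RNA could be checked in part. Among 554 ribosomal RNA transcripts and pseudogenes of GENCODE release 29, the longest exact match on either strand was 9 bases for miR-4488, 9 for miR-4492 and 11 for miR-4516. The longest nuclear transcript in that set was 155 bases, so it covers 5S and 5.8S. It does not cover the large 18S and 28S RNAs or their precursor, whose full sequences were not analysed here. The catalogued hairpin MIR10396B lies inside the precursor gene RNA45SN1. It shared at most 7 bases with miR-4488, 6 with miR-4492 and 6 with miR-4516. The entries are therefore called GC-rich entries below. For miR-4508 that name rests on its hairpin, and the GC content of miR-10400-5p was not analysed here. Among all GENCODE transcripts, the full sequence of each of the 3 was found on the sense strand in its own hairpin gene and in no other gene. At 15 consecutive bases, transcripts of 6 genes matched miR-4488, 7 matched miR-4492 and 3 matched miR-4516, their own hairpins included.

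Library totals were 2449856 to 5405525 reads, so that 1 read is worth 0.185 to 0.408 counts per 1000000 reads (CPM). Both H2O2 replicates 2 and 3 stand apart from the rest. In H2O2 replicate 3, miR-1246 took 27.4% of the total, against 0.13% to 3.32% in the other 5 libraries. In H2O2 replicate 2, the muscle miRNAs miR-1-3p and miR-133a-3p were at 197 and 13.9 CPM, against at most 12.9 and 0.242 CPM elsewhere. That replicate is also the highest library for all 5 GC-rich entries, and the ratios and fitted fold changes without it are given beside those with it. Of the epithelial markers miR-200, miR-203 and miR-205, the tables used here list miR-205-3p alone, at 3.25 to 70.0 CPM, so the keratinocyte label could not be checked further.

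Each of the 5 entries had at most 9 reads in any untreated library, and each was higher in every H2O2 library than in any untreated one. Together they held 11, 15 and 20 reads in untreated replicates 1 to 3 and 120, 230 and 81 reads in H2O2 replicates 1 to 3. Their summed level was 3.48, 5.67 and 3.70 CPM in untreated and 39.0, 93.9 and 19.6 CPM in H2O2 exosomes, or 4.28 ± 1.21 and 50.8 ± 38.5 CPM (SD, n = 3 each). The ratio of the means was 11.9, and 6.84 without H2O2 replicate 2. The groups did not overlap for the sum or for any of the 5. Of all 161 known rows, 37.3% were likewise higher without overlap, and of the 79 listed as higher, 60 were. These shares come from rows selected for a difference, and nothing is read from them. In exosomes, more of an RNA per vesicle and more vesicles that carry it cannot be told apart. CPM is a share of a library's reads, so less of other RNAs cannot be told apart from these either.

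**Figure D1:**
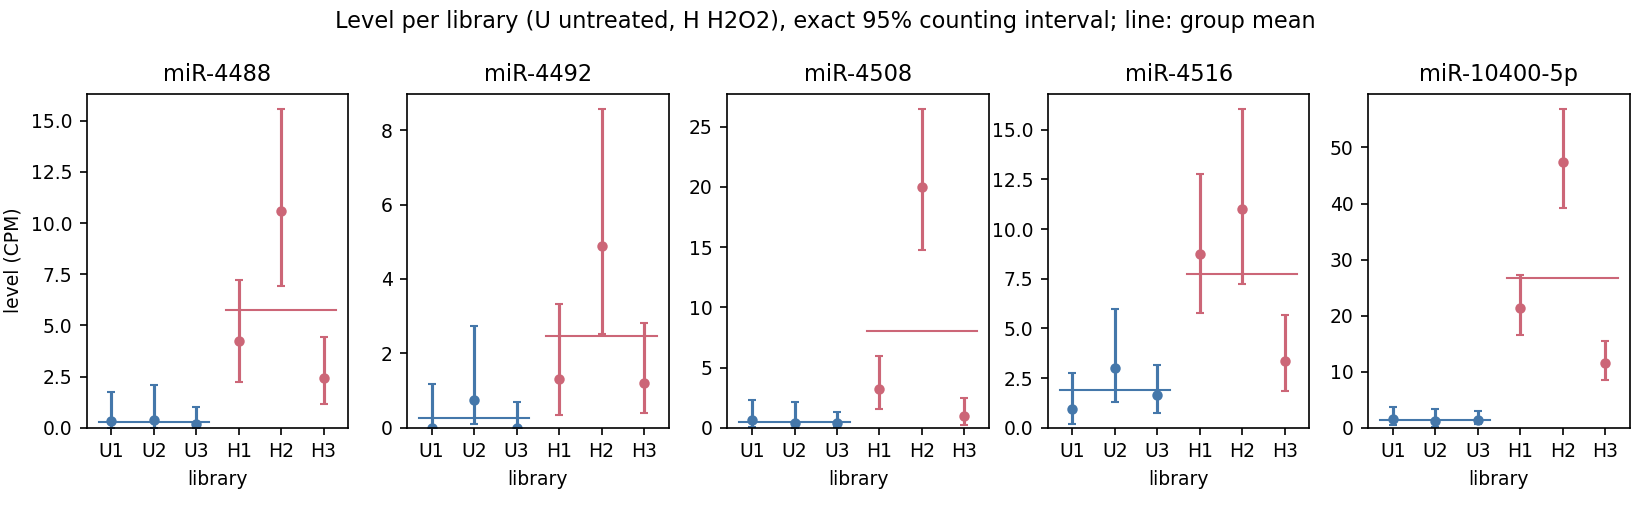
Level of each of the 5 entries (CPM, own vertical scale in each panel) in untreated (U1 to U3, blue) and H2O2 libraries (H1 to H3, red), with exact 95% counting intervals and a line at the group mean. H2O2 replicate 2 is the highest point in every panel, from 4.90 CPM for miR-4492 to 47.3 CPM for miR-10400-5p.

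hsa-miR-4488 was seen as 1 read in each untreated library, where the floor used is 3 reads, and as 13, 26 and 10 reads in H2O2 replicates 1 to 3. Its level went from 0.293 ± 0.0986 to 5.75 ± 4.31 CPM (SD, n = 3 each). The lowest H2O2 library was 6.40 times the highest untreated one. The exact 95% counting intervals of these libraries, 1.16 to 4.45 and 0.00957 to 2.11 CPM, overlap. Pooling the reads of each group gave a ratio of 19.0, with an exact 95% interval from 6.12 to 95.1, the width of which comes from the 3 untreated reads. Such intervals cover counting error only, not the spread between cultures. Without H2O2 replicate 2, the ratio of mean levels was 11.3 in place of 19.6, and the pooled ratio was 11.9 (3.602 to 62.0).

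hsa-miR-10400-5p held the most reads of the 5. It had 5, 3 and 8 reads in untreated replicates 1 to 3 and 66, 116 and 48 in H2O2 replicates 1 to 3. In CPM these were 1.58, 1.13 and 1.48 against 21.4, 47.3 and 11.6. Mean levels were 1.40 ± 0.234 CPM in untreated and 26.8 ± 18.5 CPM in H2O2 libraries (SD, n = 3 each). The exact 95% counting intervals of the untreated libraries reach from 0.234 to 3.69 CPM, so their small SD does not show a tight baseline. The pooled ratio was 16.7, with an exact 95% interval from 10.1 to 29.7. The ratio of mean levels was 19.2, and 11.8 without H2O2 replicate 2. The pooled ratio without that library was 11.1 (6.54 to 20.04).

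hsa-miR-4508 had most of its H2O2 reads in 1 library. Its reads were 2, 1 and 2 in untreated replicates 1 to 3 and 10, 49 and 4 in H2O2 replicates 1 to 3. In CPM the H2O2 libraries were at 3.25, 20.001 and 0.968, a 20.7-fold range within the group, and the untreated ones at 0.632, 0.378 and 0.370. The ratio of mean levels was 17.5 with all libraries and 4.58 without H2O2 replicate 2. The pooled ratio was 14.6, with an exact 95% interval from 5.95 to 46.6, and 4.35 (1.48 to 15.4) without H2O2 replicate 2. Each untreated count was below the floor of 3 reads. H2O2 replicate 3, with its 4 reads, stood 1.53 times above the highest untreated library, which was untreated replicate 1. The exact 95% counting intervals of these libraries overlap, at 0.264 to 2.48 and 0.0766 to 2.28 CPM.

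hsa-miR-4492, which shares the 15 bases with the miR-4508 hairpin, had the fewest reads. It had 0, 2 and 0 reads in untreated replicates 1 to 3 and 4, 12 and 5 in H2O2 replicates 1 to 3. With a floor of 3 reads, a count of 0 allows up to 0.948 CPM in untreated replicate 1 and 0.555 CPM in untreated replicate 3. The exact 95% intervals drawn in the plot of levels, which have 2 sides, reach 1.17 and 0.682 CPM there. The H2O2 libraries were at 1.30, 4.90 and 1.21 CPM and untreated replicate 2 at 0.756 CPM. The interval of untreated replicate 2, 0.0916 to 2.73 CPM, overlaps that of every H2O2 library. The highest of those, in H2O2 replicate 2, is 2.53 to 8.56 CPM. The pooled ratio was 12.2, with an exact 95% interval from 2.98 to 107.2, and 6.998 (1.45 to 66.6) without H2O2 replicate 2. The ratio of mean levels was 9.79, and 4.98 without H2O2 replicate 2. It was 6.53 without untreated replicate 1 or without untreated replicate 3, and without untreated replicate 2 no untreated read was left. The counts of miR-4492 and miR-4508 differ in every library, so the rows are not copies of each other.

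hsa-miR-4516 had the lowest ratio of the 5. Its reads were 3, 8 and 9 in untreated replicates 1 to 3 and 27, 27 and 14 in H2O2 replicates 1 to 3. In CPM these were 0.948, 3.03 and 1.66 against 8.77, 11.02 and 3.39. H2O2 replicate 3 lay 1.12 times above untreated replicate 2, and the counting intervals of these libraries overlap. Mean levels were 1.88 ± 1.05 CPM without and 7.73 ± 3.92 CPM with H2O2 (SD over 3 libraries each). The ratio of the means was 4.11, and 3.23 without H2O2 replicate 2. The pooled ratio was 3.95, with an exact 95% interval from 2.37 to 6.86, and 3.19 (1.83 to 5.74) without H2O2 replicate 2.

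**Figure D2:**
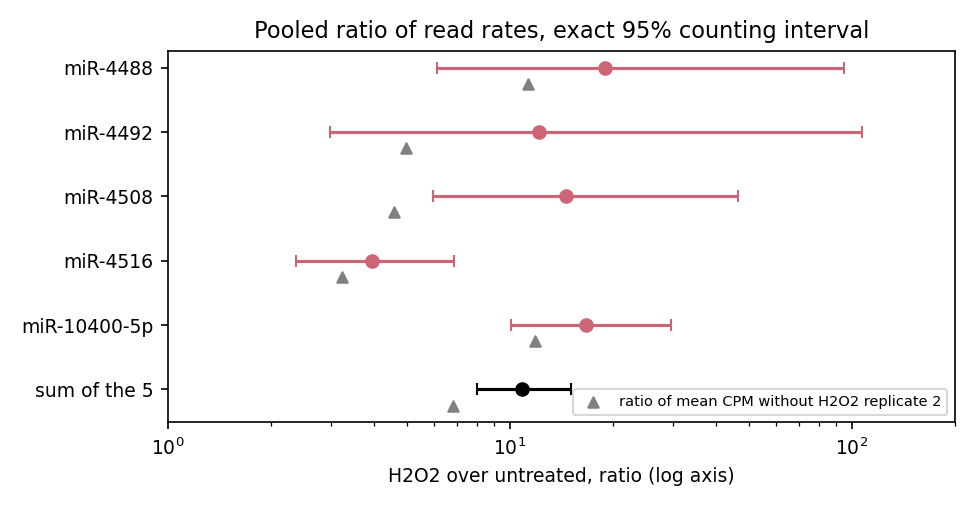
Ratio of pooled read rates, H2O2 over untreated, on a log axis with exact 95% counting intervals (circles), and the ratio of mean CPM without H2O2 replicate 2 (triangles). miR-4516 has the lowest pooled ratio, 3.95, and miR-4508 shows the widest gap to its triangle, at 4.58.

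A fit across all rows of the tables gave fold changes for the 3 entries with at least 5 reads in at least 3 libraries, namely miR-4488, miR-4516 and miR-10400-5p. They met that condition through their H2O2 libraries. The edgeR log2 fold changes were 4.19 ± 0.84 for miR-4488, 4.21 ± 0.68 for miR-10400-5p and 2.03 ± 0.65 for miR-4516 (SE). Without H2O2 replicate 2 they were 3.44 for miR-4488, 3.51 for miR-10400-5p and 1.69 for miR-4516. With no filter on low counts, miR-4508 was at 4.02 ± 1.11 and miR-4492 at 3.37 ± 1.31. The authors' deposited table gives log2 fold changes of 4.31 for miR-4488, 4.32 for miR-10400-5p, 4.10 for miR-4508, 3.53 for miR-4492 and 2.20 for miR-4516. The median over the 5 in the authors' deposited table was 4.10, against 1.80 over all 79 known rows listed as higher. The median untreated level was 0.460 CPM for the 5 and 4.21 CPM for the 79. The ratios of the 5 thus rest on lower untreated levels, and nothing is read from the gap. Of the 127 known rows with enough reads, 30.7% were called higher by the edgeR test, and the calls of the members are not given, since the members were chosen on this contrast. That background moves with the scaling, as 39 known rows were called higher and 61 lower with the authors' totals, 24 and 66 with median-of-ratios scaling, and 45 and 42 with totals that leave out miR-1246.

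The order of the H2O2 libraries is also given as a description only. The entries were chosen with earlier results of these data known, and for being high in these same libraries. All 5 had their highest level in H2O2 replicate 2, then replicate 1, then replicate 3, which are labelled 25, 24 and 26 h. Of the 74 other known rows listed as higher, 33 (44.6%) had this order, and of the 82 rows listed as lower 15 (18.3%) had it. H2O2 replicate 2 has the smallest library total of the 3 and replicate 3 the largest, and the part of the totals in this order was not tested. The raw reads of 4 of the 5 were highest in replicate 2, and miR-4516 had 27 reads in both replicates 1 and 2. With totals that leave out miR-1246, 4 of the 5 kept the full order and all 5 kept replicate 2 as the highest, against 22 and 40 of the 74 other rows. The untreated libraries showed no shared order, and their counts are too low to give one.

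The proportions between the entries do not depend on the library totals. Within the H2O2 group the summed level spanned 4.79-fold, yet miR-4488 made up 10.8%, 11.3% and 12.3% of the reads of the 5 in replicates 1 to 3. The exact 95% intervals of these miR-4488 shares were 5.90% to 17.8%, 7.52% to 16.1% and 6.08% to 21.5%, wide enough to hide a shift. miR-10400-5p made up 55.0%, 50.4% and 59.3%, with intervals of 45.7% to 64.1%, 43.8% to 57.1% and 47.8% to 70.1%. miR-4508 did not keep its proportion, at 8.33%, 21.3% and 4.94%, and the exact 95% interval in replicate 2 (16.2% to 27.2%) lay above those in replicate 1 (4.07% to 14.8%) and replicate 3 (1.36% to 12.2%). Between the groups, miR-4516 took 43.5% of the pooled untreated reads, 20 of 46, and 15.8% of the pooled H2O2 reads, 68 of 431. The exact 95% intervals were 28.9% to 58.9% and 12.5% to 19.6%. In each untreated library its share, from 27.3% to 53.3%, was above that in each H2O2 library, from 11.7% to 22.5%. The untreated shares rest on few reads. The lowest is 3 of 11 reads in untreated replicate 1, with an exact 95% interval from 6.02% to 61.0% that spans all the H2O2 shares. The pooled intervals cover counting error only, not the spread between cultures, and the shift restates the lower ratio of miR-4516. miR-10400-5p took 34.8% of the untreated and 53.4% of the H2O2 reads.

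**Figure D3:**
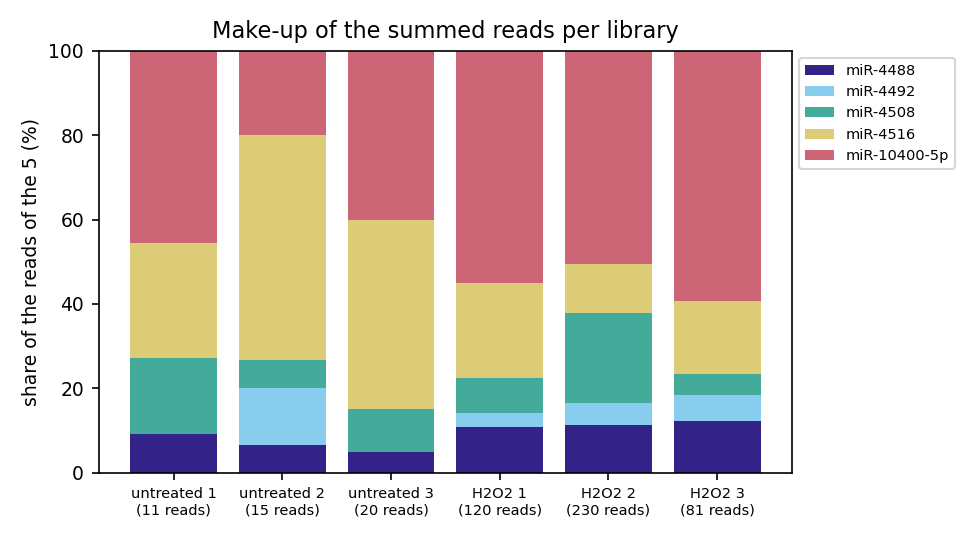
Share of each entry in the summed reads of the 5 (percent), per library, with the number of reads below each bar. miR-4488 and miR-10400-5p have similar shares in the 3 H2O2 libraries, within wide counting intervals that are not drawn. miR-4508 reaches 21.3% in H2O2 replicate 2, and miR-4516 is larger in the untreated libraries.

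The counts of miR-4488 returned almost unchanged in the table of predicted miRNAs. All 6 predicted rows that the authors matched to the cattle miRNA bta-miR-2327 held 1, 1 and 1 reads in untreated and 13, 26 and 9 in H2O2 replicates 1 to 3, which is 1 read less than miR-4488 in H2O2 replicate 3. These rows were noticed after their values were seen. Their names begin with 11 in 2 rows and with 21 in 4, which reads as the chromosome. MIR4488 lies on chromosome 11, and RNA45SN1, a gene of the ribosomal RNA precursor, on chromosome 21. A shared chromosome does not place a row at either gene. The sequences and positions of the predicted rows were not analysed here, so whether the same reads were counted in all 7 rows was not tested. For miR-4492, miR-4508, miR-4516 and miR-10400-5p, 0 predicted rows came within 3 reads in every library.

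Other GC-rich entries did not all go the same way. Of the listed known rows with a sequence, 6 besides the members had a GC content of at least 75%, of which the authors listed 2 as higher and 4 as lower. miR-7704 (84.2% GC) was well covered, with 98, 139 and 86 reads in untreated and 362, 319 and 231 in H2O2 replicates 1 to 3. Its levels of 15.9 to 52.6 CPM and 55.9 to 130.2 CPM did not overlap, and the authors' deposited table gives a log2 fold change of 1.79. miR-3940-5p (75% GC), which shares 11 bases with miR-4488, had 0, 0 and 4 reads against 3, 7 and 2, and its groups overlapped.

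On the other side, miR-6724-5p, at 91.3% GC second to miR-4492, had 1, 5 and 2 reads in untreated and 0 in each H2O2 library. miR-1268a (83.3% GC) had 3, 16 and 3 reads against 0, 2 and 0, and miR-1268b (80.0% GC) had 3, 16 and 4 against 0, 1 and 0. The counts of these related names are nearly identical, and reads that fit both cannot be told apart. miR-4745-5p (78.3% GC) had 11, 24 and 84 reads against 6, 9 and 12. A list of 37 other GC-rich or ribosomal-RNA-like names gave 4 listed rows, miR-7704, miR-6724-5p, miR-1268a and miR-1268b, of which 1 is listed as higher and 3 as lower. Over all listed rows with a sequence, the median GC content was 47.8% for those listed as higher and 50.0% for those listed as lower.

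**Figure D4:**
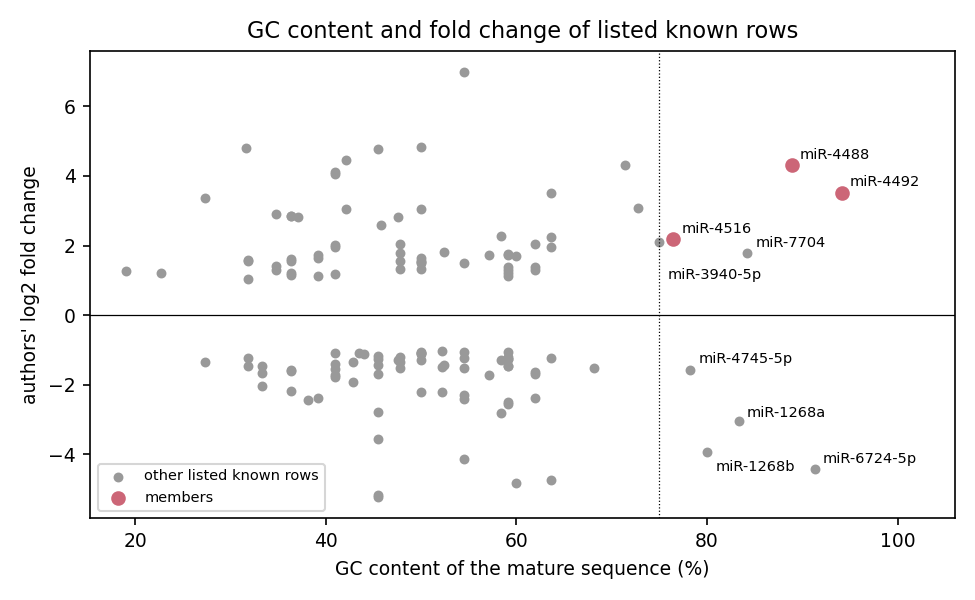
GC content of the mature sequence (percent) against the authors' log2 fold change for the 136 listed known rows with a RefSeq sequence; the 3 members with a sequence are red and the dotted line marks 75%. At or beyond the line, 5 rows lie above 0, the 3 members among them, and 4 lie below 0. The empty band around 0 comes from the authors' selection of rows.

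The rows most like the summed level of the 5 were found by Pearson's r of log2(CPM + 1) over the 6 libraries, as a description, since all share the same libraries and the same selection. Of 124 known rows with enough reads, the closest were miR-1248 (r = 0.98), miR-362-3p (r = 0.97) and miR-9-5p (r = 0.96). miR-1248 was at 2.53, 2.27 and 1.48 CPM in untreated and 12.3, 23.3 and 5.32 CPM in H2O2 replicates 1 to 3. In H2O2 replicates 1 to 3, miR-9-5p was at 3993, 5505 and 3887 CPM and miR-362-3p at 5.85, 10.2 and 6.05 CPM. The order of H2O2 libraries of the 5 entries is seen in miR-1248 and miR-9-5p but not in miR-362-3p. Rows picked for a high r are likely to share that order, so nothing is read from it. Of 59 predicted rows, the closest were the 6 that nearly repeat miR-4488 (r = 0.99). These 6 hold the same counts, so no 3 of them stand closer than the rest. miR-4488 is itself part of the sum, so their high r follows in part from that.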

How the data were processed

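Small RNA libraries of exosomal RNA were made with a NEBNext kit after Trizol extraction, per the labels' protocols. The submitters' processing notes name bcl2fastq, FastQC, cutadapt and Bowtie 1.1.1, while the genome build, catalogue and counting rule were not stated in any source used here. The authors deposited, per the file headers, raw counts, a normalized value (CPM), a log2 fold change, the fold as a ratio and an unadjusted p-value for rows they had selected. Count divided by CPM gave 1 total per library, the same in all 4 tables. The members and lists were chosen with earlier results of these data known.

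The counts were fitted with edgeR 4.0.16 in R 4.3.3 (quasi-likelihood, authors' totals, no composition factor, at least 5 counts in at least 3 libraries, Benjamini-Hochberg threshold 0.05). The fit was first run on simulated data in which most rows were unchanged. The deposited rows were selected for a difference, so that run does not cover the errors or calls given here. Pooled ratios have exact conditional 95% intervals. Alternatives used DESeq2 1.42.0, limma 3.58.1, other scalings and filters, a replicate block and each library left out. Named rows were the 5 members, the 3 known and 3 predicted rows most like their sum, listed rows of at least 75% GC, listed rows of the GC-rich list, and rows sharing at least 12 bases with a member. No other rows were named except those used to describe libraries. Sequences are from RefSeq.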

Additional observations from a re-analysis of the deposited data

How the results depend on the processing

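The summed level of the 5 entries, at a log2 ratio of 3.57, was at 3.22 with median-of-ratios scaling, 3.45 with TMM, 3.64 with totals that leave out miR-1246 and 2.77 to 3.96 with 1 library left out. It was at 3.48 without miR-4508, 3.06 without miR-10400-5p and 4.16 without miR-4516 in the sum. In all of these but the last 3, where it was not counted, the number of entries without overlap was 5. The fitted log2 fold changes of the 3 fitted entries were positive in every alternative, with the lowest values from limma on log2(CPM + 1), at 2.20 for miR-4488, 1.54 for miR-4516 and 3.32 for miR-10400-5p. Without H2O2 replicate 2 miR-4488 was at 3.44. With at least 20 counts, miR-10400-5p alone was left. Known rows called higher were 24 with median-of-ratios scaling against 39, and 15 to 39 with 1 library left out, where rows called lower were 9 to 44 against 61. The median log2 fold change of the known rows, -1.23, moved to -1.48 with median-of-ratios scaling and to -1.04 with totals that leave out miR-1246. Whether the replicate numbers pair the libraries was not settled. Same-numbered deviations from the group means correlated at 0.20, 0.08 and 0.23, and differently numbered ones at -0.25 to 0.12. Deviations from a mean of 3 libraries are tied to each other, so these values cannot decide it. With the replicate block, 40 known rows were called higher and 60 lower, and the log2 fold changes were 3.97 for miR-4488, 1.93 for miR-4516 and 3.92 for miR-10400-5p. Of the alternatives, the pooled ratios without H2O2 replicate 2 and 1 row per set of identical counts were chosen after seeing the data, and the latter left the 39 and 61 calls as they were. Low counts limit miR-4492 and miR-4508, which could not be fitted with the filter.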
